A study of Rattus norvegicus with 9 samples.

Results

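Heparan sulfate synthesis and sulfation enzymes are described here in hepatic macrophages of male rats of the Sprague-Dawley strain. The rats had partial portal vein ligation (PPVL), a narrowing of the portal vein by surgery that raises portal pressure, or a sham operation. The 10 genes are Ext1, Ndst1, Ndst2, Hs2st1, Hs6st1, Hs3st1, Hs3st3a1, Hs3st3b1, Sulf1 and Sulf2, taken from 18166 genes that had a probeset with a single gene symbol on the array. Each was read from its probeset with the highest mean, and each of the 10 has 1 such probeset. The 9 arrays hold RNA of 1 rat each, with 3 rats after sham surgery, 3 rats 3 days after PPVL and 3 rats 10 days after PPVL. PPVL tied the vein against a blunt needle that was then withdrawn, sham rats had the operation with no tie, and the labels give no day of collection for these rats. The labels give no age, genotype other than the strain, drug or purity of the isolated cells, and there was no sham group for each day.

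The genes were chosen by symbol and their probesets by mean signal, but the list was drawn up knowing that Hs3st3a1 at 3 days, and Hs3st3b1 and Sulf2 at 10 days, differed from sham. The differences from sham are therefore a description of these arrays, and their adjusted p values give a place among all genes and support nothing beyond that. All 10 genes had mean signals above the level below which genes were not tested (4.16 on the log2 scale), Sulf1 by 0.07 and Ndst1 by 0.50, the others by 2.28 or more. For 1 gene in groups of 3 rats, the smallest p that exact permutation allows is 0.1.

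Heparan sulfate is a linear sugar chain that is built in the Golgi on core proteins such as the syndecans, and it binds growth factors, chemokines and proteases at the cell surface. Its function depends on where sulfate groups sit: N-sulfation comes first, followed by 2-O-, 6-O- and the rare 3-O-sulfation, and extracellular sulfatases later remove 6-O-sulfate. Macrophages carry heparan sulfate on syndecans, and endothelial cells and hepatocytes of the liver carry it on their surfaces.

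The 250 bases before the annotated starts of Hs3st3a1, Hs3st3b1 and Sulf2 are shown because these 3 genes had the largest differences from sham at both days. The sequences are from RefSeq (build GRCr8), 5′ to 3′ on the strand of the gene, at chr10:49592958-49593207 (plus strand), chr10:49093186-49093435 (minus strand) and chr3:175323652-175323901 (minus strand). Capitals mark matches on either strand to 2 motifs, GGGCGG (the GC box) and, separately, CCAAT (the CCAAT box).
Hs3st3a1: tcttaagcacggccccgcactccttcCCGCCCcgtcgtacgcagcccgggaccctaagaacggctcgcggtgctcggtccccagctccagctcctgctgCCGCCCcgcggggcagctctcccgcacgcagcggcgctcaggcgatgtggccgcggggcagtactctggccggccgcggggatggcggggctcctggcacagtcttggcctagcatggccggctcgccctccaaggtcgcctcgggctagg
Hs3st3b1: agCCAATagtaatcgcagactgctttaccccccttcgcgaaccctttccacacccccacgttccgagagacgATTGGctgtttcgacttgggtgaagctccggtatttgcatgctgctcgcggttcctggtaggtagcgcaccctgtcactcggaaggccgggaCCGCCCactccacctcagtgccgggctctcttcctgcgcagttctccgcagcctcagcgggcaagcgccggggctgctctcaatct
Sulf2: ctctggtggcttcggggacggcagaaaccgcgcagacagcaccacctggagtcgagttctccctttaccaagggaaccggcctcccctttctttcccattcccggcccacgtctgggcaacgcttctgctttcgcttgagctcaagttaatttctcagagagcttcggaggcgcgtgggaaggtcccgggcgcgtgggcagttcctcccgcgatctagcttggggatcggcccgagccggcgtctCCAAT

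Of the 10 genes, 8 had such a sequence. A set of 5 short motifs was searched on both strands in these windows, and no match of one overlaps another in the 3 sequences shown. Hs3st3a1 holds 2 GC boxes and no CCAAT box. Hs3st3b1 holds 1 GC box and 2 CCAAT boxes, and Sulf2 holds 1 CCAAT box that ends at the base before its start. None of the 3 holds TATAAA (the TATA box), TGANTCA (an AP-1 site) or GAGGAAG (an ETS factor site). Over all 33469 RefSeq windows of the same length, 30.5% hold the GC box, 34.0% the CCAAT box, 12.9% the TATA box, 6.34% the AP-1 site and 10.2% the ETS factor site. The G and C content was 73.6% for Hs3st3a1, 61.6% for Hs3st3b1 and 62.4% for Sulf2, against a median of 51.2% over all windows. The 3 windows hold 29, 20 and 22 CpG dinucleotides, against a median of 5.0. Windows of Ndst2, Hs2st1, Hs6st1 and Hs3st1, genes that passed the test at neither day, had 75.2%, 70.4%, 75.6% and 67.6% G and C. They hold 27, 31, 33 and 22 CpG dinucleotides. Ndst1, which also passed at neither day, had 54.8% and 5. The pair of 3-O-sulfotransferase genes lies on chromosome 10 with a single protein-coding gene, Cox10, between them in the RefSeq annotation. Cox10, which takes part in making haem for the respiratory chain, differed from sham by -0.02 ± 0.06 at 3 days and -0.03 ± 0.06 at 10 days (log2 difference ± SE, n = 3 rats a group). Elac2, the neighbour beyond Hs3st3a1, differed by -0.12 and -0.03, and Pmp22, the neighbour beyond Hs3st3b1, by 0.13 and 0.62, none of them past the test.

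At 3 days after PPVL, Hs3st3a1 and Hs3st3b1 fell to 0.475 and 0.505 of their sham signal and Sulf2 rose 1.98-fold. The other 7 genes, among them the chain polymerase Ext1, both N-sulfotransferases, the 2-O- and 6-O-sulfotransferases and the 3-O-sulfotransferase Hs3st1, differed from sham by -0.12 to 0.15 on the log2 scale and did not pass the test. Their 95% confidence intervals lay between -0.35 and 0.33. At 10 days the differences of the same 3 genes from sham were -0.59, -0.82 and 0.84, of which the last 2 passed the test. Both comparisons use the same sham arrays. In RNA of a whole isolate, fewer cells of a type and less RNA per cell cannot be told apart.

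**Figure D1:**
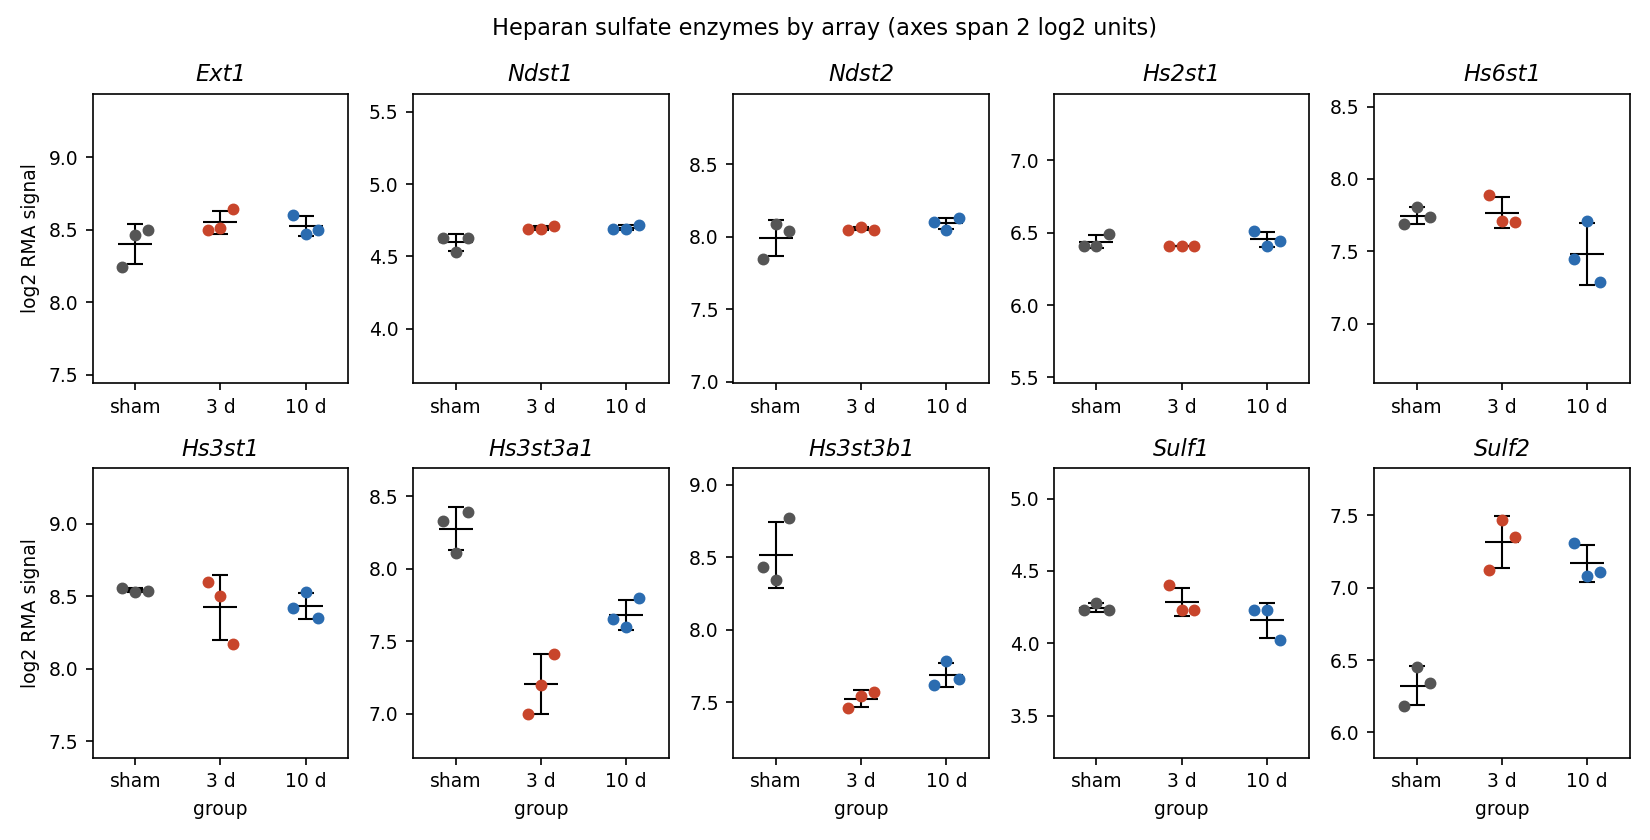
Log2 RMA signal (vertical axis, each panel spanning 2 log2 units around its own middle) of the 10 genes in sham rats, rats at 3 days and rats at 10 days after PPVL, with 1 point per rat and the mean ± SD of 3 rats. Hs3st3a1 and Hs3st3b1 lie lower and Sulf2 lies higher in all 6 PPVL rats than in any sham rat.

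Hs3st3a1 encodes a 3-O-sulfotransferase, known from human and mouse to make the chain sites that glycoprotein D of herpes simplex virus binds. Its log2 signals were 8.33, 8.11 and 8.39 in the sham rats, 7.0, 7.20 and 7.41 at 3 days, and 7.65, 7.60 and 7.80 at 10 days. The 3 groups did not overlap: every sham rat was above every rat at 10 days, and each of those was above every rat at 3 days. The difference from sham was -1.07 ± 0.11 at 3 days (52.5% lower, limma, adjusted p = 0.00245). It was -0.59 ± 0.11 at 10 days (33.6% lower, limma, adjusted p = 0.0531), which missed the threshold of 0.05. Between the days, the signal at 10 days differed from that at 3 days by 0.48 ± 0.11. That difference had an unadjusted p = 0.00189 and did not pass the adjusted test (limma, adjusted p = 0.216).

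Hs3st3b1 encodes a closely related 3-O-sulfotransferase with a nearly identical catalytic domain. Its log2 signals were 8.43, 8.34 and 8.77 in the sham rats, 7.46, 7.54 and 7.57 at 3 days, and 7.62, 7.78 and 7.66 at 10 days. Sham rat 3 was the highest of the 9, and all 6 PPVL rats were below the lowest sham rat. The difference from sham was -0.99 ± 0.10 at 3 days (49.5% lower, limma, adjusted p = 0.00245) and -0.82 ± 0.10 at 10 days (43.4% lower, limma, adjusted p = 0.0400). The 2 PPVL groups did not overlap, but their difference of 0.17 ± 0.10 did not pass the test (limma, adjusted p = 0.580). The order of the groups, sham above 10 days above 3 days, was that of Hs3st3a1, and in neither gene did the difference between the days pass the test.

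A further probeset is annotated to both of these genes and was left out of the list, since it cannot be assigned to either. Its log2 signals were 6.554, 6.435 and 6.117 in the sham rats, 6.042, 6.142 and 5.936 at 3 days, and 6.27, 6.2 and 6.2 at 10 days. Sham rat 3 lay below all the rats at 10 days, so the groups overlapped. Its differences from sham were -0.33 ± 0.11 at 3 days and -0.15 ± 0.11 at 10 days (limma over 25679 probesets, adjusted p = 0.273 and 0.613). The unadjusted p at 3 days was 0.0183 (limma), and this fit adjusted over more tests than that of the 10 genes. How far the probes of one gene also bind RNA of the other was not tested.

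Sulf2 encodes a secreted and surface-bound sulfatase that removes 6-O-sulfate from finished chains. Its log2 signals were 6.18, 6.45 and 6.34 in the sham rats, 7.12, 7.47 and 7.35 at 3 days, and 7.31, 7.08 and 7.11 at 10 days. All 6 PPVL rats were above all sham rats, and the 2 PPVL groups overlapped. The difference from sham was 0.99 ± 0.11 at 3 days (1.98-fold, limma, adjusted p = 0.00256) and 0.84 ± 0.11 at 10 days (1.79-fold, limma, adjusted p = 0.0400). From 3 to 10 days it differed by -0.15 ± 0.11, with a 95% confidence interval of -0.39 to 0.10. The other sulfatase, Sulf1, had a mean signal of 4.25 in sham, 4.28 at 3 days and 4.16 at 10 days, close to the level below which genes were not tested. Its differences from sham were 0.04 ± 0.08 and -0.09 ± 0.08.

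Counted over the 10 genes, 1 was called higher and 2 were called lower at 3 days, where 2.86% of the 14014 genes tested were called (2.15% higher and 0.714% lower). At 10 days 1 was called higher and 1 lower, where 0.735% of all genes were called (0.492% higher and 0.243% lower). Between the days 0 were called by limma, with 2 at an unadjusted p under 0.05, and 0.0714% of all genes were called (0.0214% higher). At an unadjusted p under 0.05, 3 of the 10 were found at 3 days and 4 at 10 days, against 15.5%, 16.2% and, between the days, 11.3% of all genes. The list was made knowing some of these differences, so nothing is read from these counts. At 3 days 2 genes were higher and 2 lower with no overlap between groups, against 18.8% of all genes (10.1% higher and 8.66% lower). At 10 days 2 were higher and 3 lower, against 21.0% (9.88% higher and 11.1% lower). Between the days 2 were higher and 0 lower, against 14.6% (6.90% higher and 7.74% lower). Over the 3 groups together, Hs3st3a1, Hs3st3b1 and Sulf2 were the 3 called by the moderated F test (adjusted p = 0.00735, 0.00644 and 0.00658), where 2.35% of all genes were called. The median difference of the 10 genes was 0.027 at 3 days and -0.036 at 10 days, and that of all genes was -0.0138 and -0.000402.

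Leaving out any 1 of the 9 arrays kept the calls of these 3 genes at 3 days, with adjusted p from 0.00359 to 0.0122. The calls of Hs3st3b1 and Sulf2 at 10 days were made in 3 of these 9 fits. Leaving out any sham rat (1, 2 or 3) or any rat at 10 days (1, 2 or 3) lost both calls, at an adjusted p of up to 0.143, while the differences stayed between -0.91 and -0.69 for Hs3st3b1 and between 0.77 and 0.91 for Sulf2. In those 6 fits 0 to 11 genes of the whole table were called at 10 days.

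**Figure D2:**
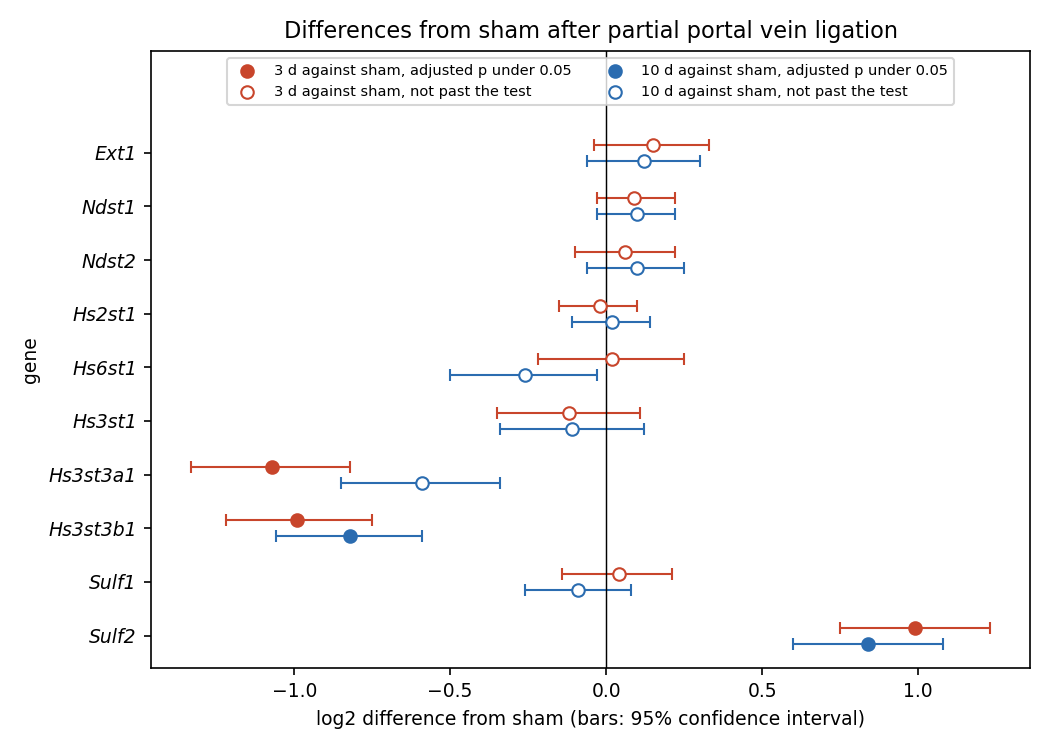
Log2 difference from sham (horizontal axis) of the 10 genes at 3 days and at 10 days after PPVL, with 95% confidence intervals from the fit over 9 arrays; filled points passed an adjusted p of 0.05. The other 7 genes lie between -0.26 and 0.15, while Hs3st3a1 and Hs3st3b1 lie to the left and Sulf2 to the right at both days.

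Among the genes that build and first modify the chain, Ext1, a subunit of the polymerase that lengthens it, had mean log2 signals of 8.40 ± 0.14 in sham, 8.55 ± 0.078 at 3 days and 8.52 ± 0.068 at 10 days (SD, n = 3). Ndst1, which replaces N-acetyl with N-sulfate groups, had 4.6 ± 0.057, 4.69 ± 0.014 and 4.70 ± 0.023. Its sham rats were below all PPVL rats at both days, with differences of 0.09 ± 0.06 and 0.10 ± 0.06 that did not pass the test (limma, adjusted p = 0.480 and 0.419). Ndst2, the other N-sulfotransferase and the one that heparin synthesis of mast cells depends on in mice, had 8.0 ± 0.13, 8.06 ± 0.008 and 8.09 ± 0.037, and its groups overlapped.

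Hs2st1, which adds 2-O-sulfate to uronic acids, had means of 6.44, 6.41 and 6.46. Hs6st1, which adds the 6-O-sulfate that Sulf2 takes off, had log2 signals of 7.69, 7.81 and 7.74 in sham, 7.89, 7.71 and 7.70 at 3 days, and 7.45, 7.71 and 7.29 at 10 days. At 10 days rats 1 and 3 were below all sham rats and rat 2 was not. The difference of -0.26 ± 0.10 from sham did not pass the test (limma, adjusted p = 0.250), nor did that of -0.28 ± 0.10 from 3 days (adjusted p = 0.373). Hs3st1, the 3-O-sulfotransferase known for making antithrombin-binding chains, had 8.55 ± 0.012 in sham, 8.42 ± 0.23 at 3 days and 8.43 ± 0.088 at 10 days. At 3 days rat 3 had 8.17 and the other rats 8.60 and 8.50, and without rat 3 the difference of -0.12 became 0.00587.

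For 6 of the 10 genes the deposited value was the same on several arrays. Hs2st1 had the same value, 6.41, on 6 of the 9 arrays including all 3 arrays at 3 days, Sulf1 had 4.23 on 5, Ndst1 4.69 on 4, Ext1 and Ndst2 their own values on 3 each, and Hs6st1 7.71 on 2. Of all genes tested, 51.2% had at least 2 equal arrays and 27.8% at least 3. The SD of Hs2st1 at 3 days was therefore 0. Hs3st3a1, Hs3st3b1, Hs3st1 and Sulf2 had no equal values.

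The rest of the pathway was described with 8 lists of genes, in which 87 genes were tested, 77 of them not among the 10. At 3 days 7 of these 77 rose and 0 fell (limma), and their median difference was -0.003. The 7 are 9.09%, where 2.15% of all genes were called higher and 0.714% lower. At 10 days 3 rose and 0 fell, and the median difference was 0.017. The 3 are 3.9%, where 0.492% of all genes were called higher and 0.243% lower. These lists too were written with earlier results of these arrays known, so the shares are a description. The risers include genes of sulfate supply, chain start and core proteins, given next.

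Papss1 and Papss2 make the activated sulfate donor that all sulfotransferases use. They were the 2 of 9 genes of sulfate supply that rose at 3 days, and the list's median difference was -0.003. Papss1 had log2 signals of 7.35, 7.40 and 7.53 in sham, 7.77, 7.89 and 7.93 at 3 days and 7.77, 7.83 and 7.86 at 10 days. All PPVL rats were above all sham rats. It rose by 0.43 ± 0.07 at 3 days and by 0.39 ± 0.07 at 10 days (limma, adjusted p = 0.0128 and 0.0479). The call at 3 days was lost without sham rat 2 or 3-day rat 2 (adjusted p up to 0.0548), and that at 10 days in 7 of 9 fits without 1 array, all but those without 3-day rat 1 or 3 (adjusted p up to 0.150). Papss2 had 4.68, 4.91 and 4.62 in sham, 5.17, 5.42 and 5.64 at 3 days and 5.18, 4.79 and 4.70 at 10 days. It rose by 0.68 ± 0.15 at 3 days (limma, adjusted p = 0.0464), a call made in 2 of 9 fits without 1 array (adjusted p up to 0.141 without sham rat 1, and also over 0.05 without sham rat 2 or 3, 3-day rat 2 or 3, or 10-day rat 2 or 3). At 10 days it differed by 0.16 ± 0.15 and overlapped with sham. Slc35b2, the Golgi transporter of the donor, differed by -0.27 and -0.28 (adjusted p = 0.299 and 0.280).

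Xylt1, which puts the first sugar of the linker on the core protein, was the 1 of 12 chain start and polymerisation genes that rose. Its log2 signals were 7.51, 7.31 and 7.39 in sham, 8.03, 7.80 and 8.07 at 3 days and 8.04, 8.07 and 8.06 at 10 days. The sham rats were below all others. It rose by 0.56 ± 0.08 at 3 days and by 0.65 ± 0.08 at 10 days (limma, adjusted p = 0.00868 and 0.0400). The call at 3 days was lost with the 2 groups alone (adjusted p = 0.0520) and made in all 9 fits without 1 array. That at 10 days was made in 4 of those 9, being lost without sham rat 2 or 3 or any 10-day rat (adjusted p up to 0.143). The medians of this list were 0.012 and -0.037. Xylt1 also starts chondroitin sulfate chains, and of 14 genes of chondroitin and dermatan sulfate synthesis 0 passed the test at either day (medians -0.030 and 0.016), with Chst3 differing by 0.63 at both days (adjusted p = 0.121 and 0.135).

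Sdc1, the core protein syndecan-1, was the 1 of 11 core protein genes that rose at 3 days. Its log2 signals were 7.76, 8.16 and 8.27 in sham, 8.92, 8.76 and 8.86 at 3 days and 8.61, 8.49 and 8.60 at 10 days. The 3 groups did not overlap. It rose by 0.78 ± 0.12 at 3 days (limma, adjusted p = 0.0103, and 0.0591 with the 2 groups alone) and differed by 0.50 ± 0.12 at 10 days (adjusted p = 0.0825). Sdc4 and Sdc3 differed by 0.50 and 0.53 at 3 days without passing (adjusted p = 0.0885 and 0.0966).

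Of the 13 tested genes of N-sulfation, epimerisation and O-sulfation, Hs3st3a1 and Hs3st3b1 were the 2 that fell at 3 days, and Hs3st3b1 the 1 that fell at 10 days. The list's medians were -0.069 and -0.040, and -0.096 and -0.008 over the 6 that are not among the 10. Of these 6, Ndst3 differed most at 3 days (-0.37, adjusted p = 0.174), with a mean signal of 4.30. Of 3 tested genes of extracellular editing and cleavage, Sulf2 rose, and heparanase (Hpse), which cuts the chains, differed by -0.28 ± 0.10 and -0.22 ± 0.10 (adjusted p = 0.210 and 0.333). Of 7 genes that break heparan sulfate down in lysosomes 0 passed at either day (medians 0.023 and 0.016), with Ids at 0.16 (adjusted p = 0.207) and Glb1 at 0.19 (adjusted p = 0.242) at 3 days.

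Of 18 tested growth factors, chemokines and receptors that bind heparan sulfate, 3 rose at 3 days and 1 at 10 days, with medians of 0.082 and 0.031. Hbegf, a growth factor that binds heparin, had 8.84, 8.83 and 9.13 in sham, 9.80, 10.45 and 9.87 at 3 days and 9.15, 9.54 and 9.48 at 10 days. It rose by 1.11 ± 0.17 at 3 days (limma, adjusted p = 0.0116, 0.0505 without sham rat 2 and 0.0545 with the 2 groups alone) and differed by 0.46 ± 0.17 at 10 days (adjusted p = 0.234). The endocytic receptor Lrp1 rose by 0.85 ± 0.10 and 0.73 ± 0.10 (adjusted p = 0.00338 and 0.0400), the latter in 3 of 9 fits without 1 array, those without a 3-day rat. Fn1, which encodes fibronectin, rose by 1.31 ± 0.10 at 3 days (adjusted p = 0.000929) and differed by 0.53 ± 0.10 at 10 days (adjusted p = 0.0522). Fgfr1, a receptor that needs heparan sulfate to bind its ligands, differed by -0.55 at 3 days (adjusted p = 0.0720).

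**Figure D3:**
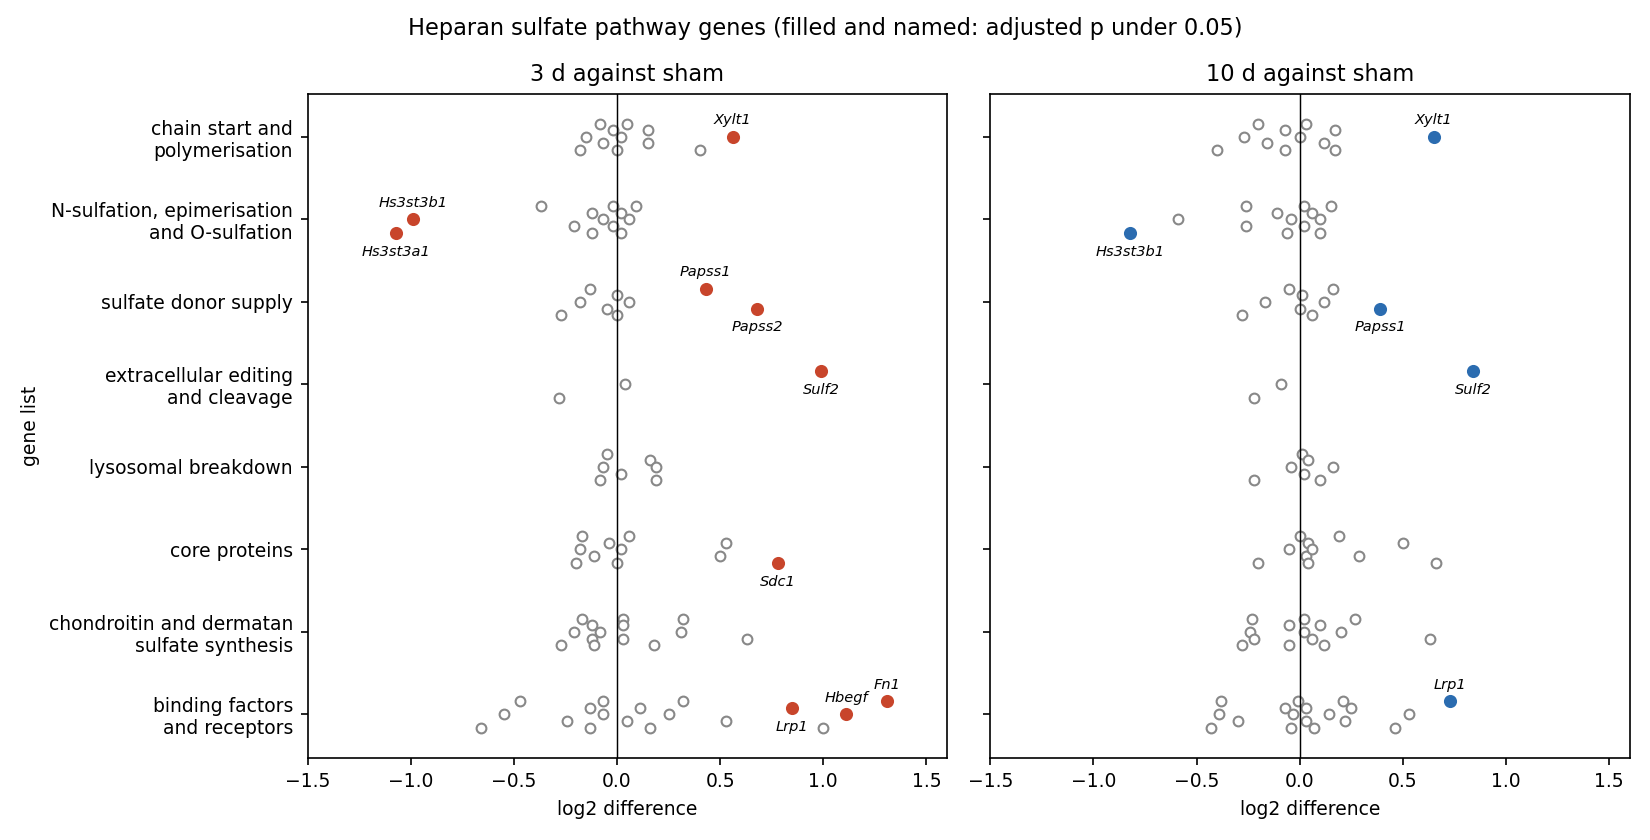
Log2 difference from sham (horizontal axis) of the 87 tested heparan sulfate pathway genes, 1 point per gene, by list, at 3 days (left) and 10 days (right) after PPVL; filled and named points passed an adjusted p of 0.05. At 3 days Hs3st3a1 and Hs3st3b1 are the filled points left of 0, and the others lie to the right.

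Over the 9 arrays, the gene-centred log2 profile nearest to that of Hs3st3a1 was that of Padi2, a peptidylarginine deiminase (root mean square distance 0.178, where the median over all genes was 0.462), followed by Hs3st3b1 (0.182) and Gpm6b (0.184). Nearest to Hs3st3b1 were Sla2 (0.115), an adaptor that restrains antigen receptor signalling, P2ry12 (0.154), a purine receptor, and Grap2 (0.168), an adaptor of T cell receptor signalling, where the median was 0.455. Nearest to Sulf2 were Itgam (0.1), the integrin CD11b, thromboxane synthase Tbxas1 (0.114) and acid ceramidase Asah1 (0.128), where the median was 0.468. These distances are a description over 9 arrays that share the 3 groups.

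Marker lists of cell types were read on the same arrays, and some of them differed between the groups. Signals of Cd68, Csf1r and Adgre1, general macrophage markers, averaged 11.17, 10.25 and 8.55. The means of all 11 tested macrophage genes ran from 4.50 to 12.85 and those of the 9 tested Kupffer cell genes from 4.26 to 7.55, with Spic below the level tested. The 11 T cell genes had a mean level of 9.37 to 9.62 in sham, 9.04 to 9.31 at 3 days and 8.97 to 9.15 at 10 days, with 0 called at 3 days and Cd5 and Cd6 called lower at 10 days. The 10 natural killer cell genes had 9.80 to 9.91, 9.37 to 9.83 and 9.41 to 9.50, with 0 called at 3 days and Gzmc lower at 10 days. The mean T cell and natural killer cell scores, 0.26 and 0.21 in sham, were highest there, as were Hs3st3a1 and Hs3st3b1. From 3 to 10 days these scores went from -0.05 to -0.21 and from -0.01 to -0.20, while the mean signals of both 3-O-sulfotransferases were higher at 10 days, without passing the test. The 8 dendritic cell genes had a mean level of 8.05 to 8.12 in sham, 7.81 to 7.90 at 3 days and 7.97 to 8.05 at 10 days. Their mean scores of 0.10, -0.13 and 0.03 had the order of both 3-O-sulfotransferases, sham above 10 days above 3 days. Flt3 (-1.12), Clec9a (-0.67) and Irf8 (-0.38) were called lower at 3 days (limma, adjusted p = 0.0116, 0.0157 and 0.0116), and 0 of the 8 were called at 10 days. Itgax and Batf3 went the other way, by 0.42 and 0.30 at 3 days and 0.44 and 0.28 at 10 days. In both genes all PPVL rats were above all sham rats, without passing the test. Xcr1 (-0.21), Ccr7 (-0.15) and Zbtb46 (-0.07) did not pass it at 3 days either. The part of these 3 cell types in the falls of Hs3st3a1 and Hs3st3b1 was not tested.

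Beside the rise of Sulf2, the 9 monocyte genes had a mean level of 9.06 to 9.64 in sham, 10.07 to 10.40 at 3 days and 9.56 to 9.80 at 10 days, with 4 called higher at 3 days and 1, Itgam, at 10 days. Monocyte scores at 10 days (0.01, -0.14 and -0.23) overlapped those of sham (-0.73, -0.23 and -0.15), while Sulf2 did not overlap. The lowest of these scores was that of sham rat 1, which also had the lowest Sulf2 signal (6.18). Itgam is also the profile nearest to Sulf2, and Fn1 is on both this list and a pathway list. The 11 macrophage genes had 7.79 to 7.84, 8.14 to 8.47 and 8.10 to 8.19, with 3 called higher at 3 days and 1 at 10 days. The 9 Kupffer cell genes had 5.52 to 5.53, 5.80 to 6.25 and 5.74, with 2 and 1 called higher. Their part in the rise of Sulf2 was not tested. The stellate cell and fibroblast list had 5.10 to 5.17, 5.19 to 5.26 and 5.18 to 5.22, with 1 of 9 called higher at 3 days, and Dcn, Lum and Lrat lay below the level tested. The 8 sinusoidal endothelial genes had 5.47 to 5.63, 5.37 to 5.69 and 5.40 to 5.59, with 0 called. Of 11 mast cell and basophil genes on the array, 6 including Cpa3 and Tpsab1 lay below the level tested, and of the other 5 Kit was called lower at 3 days.

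The remaining lists are given for the 3 days after PPVL and then the 10 days. Of 8 B cell genes 2 and 0 were called higher, with median differences of 0.406 and 0.539. Their mean level was 8.01 to 8.03 in sham, 8.28 to 8.75 at 3 days and 8.44 to 8.70 at 10 days. As with Sulf2, this level was higher in all PPVL rats than in any sham rat, and the part of B cells was not tested. The same held for the levels of the macrophage, Kupffer cell, and stellate cell and fibroblast lists. Of 11 neutrophil genes 2 and 0 were called higher. Neutrophil scores in sham rats 1, 2 and 3 were -0.87, 0.10 and 0.16, and that of sham rat 1 was the lowest of all rats. Of 6 platelet genes 0 and 0 were called, of 8 hepatocyte genes 1 and 0 were called higher, and of 2 cholangiocyte genes 1 (Spp1) and 0. The other cholangiocyte gene tested, Krt7 (mean 4.46), differed by -0.05 and -0.02, and Krt19, Epcam, Sox9 and Cftr lay below the level tested.

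**Figure D4:**
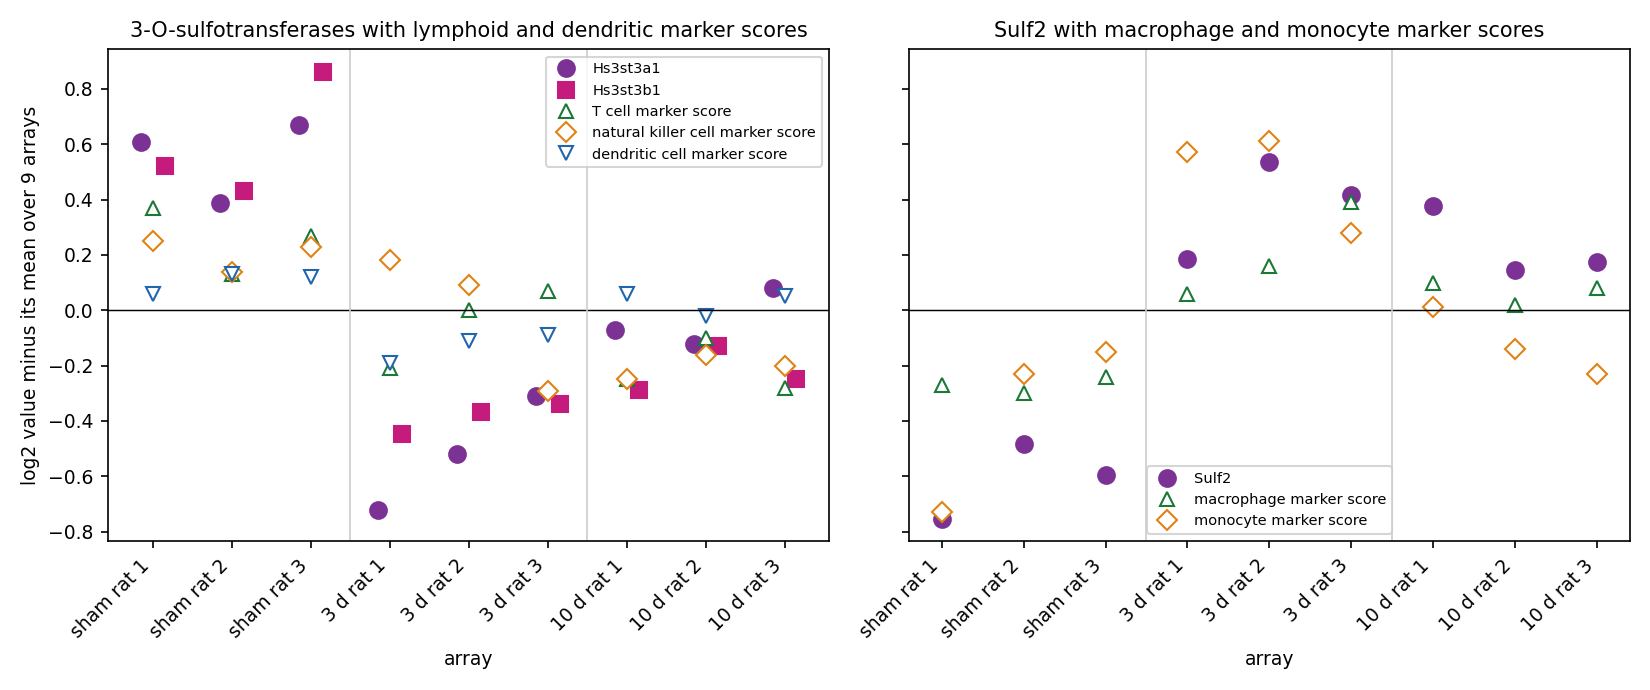
Log2 value minus its mean over the 9 arrays (vertical axis) for each rat (horizontal axis): Hs3st3a1 and Hs3st3b1 with the mean scores of T cell, natural killer cell and dendritic cell genes (left), and Sulf2 with those of macrophage and monocyte genes (right). The 3 scores at left are above 0 in all sham rats, and both at right are below 0 in all sham rats. At 10 days the monocyte score overlaps that of sham, while Sulf2 does not.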

How the data were processed

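The deposited values are log2 signals, 1 value per probeset and array from biotin-labelled RNA on Affymetrix arrays; the submitters' processing notes name RMA (robust multi-array averaging) and Transcriptome Analysis Console as the authors' tools. Their versions, like the genome build, are not given in the sources used here. Deposited were 36685 probesets with no missing values, array medians of 5.215 to 5.265 and pairwise correlations of 0.987 to 0.993, and nothing was normalized further. Precision is limited by how many arrays there are, not by a read depth. The platform annotation supplied gene names, and of the probesets 18511 had 1 symbol and 575 several, with the highest-mean probeset for each gene. Dim genes, whose mean lay under the 30th percentile over probesets (4.16), were not tested, which left 14014.

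All 9 arrays entered 1 linear model per gene in limma 3.58.1 under R 4.3.3 (6 residual and 3.59 prior degrees of freedom), 2-sided, with Benjamini-Hochberg adjustment over all genes tested and a threshold of 0.05. Differences are given ± SE with 3 rats a group. On simulated data for 3 days against sham with 14014 genes in 10 sets, 95.4% of log2 changes of 1 and 63.0% of changes of 0.5 were found, and 5.99% of the calls were false. Each set changed 200 genes and drew normal noise for each gene separately, at its observed spread. Shifts that genes share on an array were not simulated, so these shares need not hold for the real arrays. Pathway and marker lists were matched by symbol or Entrez ID, with 97 of 106 pathway genes found. A list's score averages gene-centred log2 values over its tested genes. All 10 genes were named, of each pathway list up to 4 genes a comparison (first those past the test, then by p), and for 3 genes the 3 nearest profiles. Chromosome neighbours and single marker genes were chosen after their values were seen. The members and lists were chosen with earlier results of these data known. Each array is a rat of its own, per the labels. Fits were repeated with other filters, probeset rules, normalization, moderation, a replicate block, the 2 groups alone and without each array.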

Additional observations from a re-analysis of the deposited data

Results flagged for a closer look

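Among the pathway genes, the difference between the days was itself past the test for Fn1, whose product fibronectin binds heparan sulfate. Its log2 signal at 10 days differed from that at 3 days by -0.782 (limma, adjusted p = 0.0324), with 11.79 ± 0.16 at 3 days and 11.01 ± 0.02 at 10 days (SD, n = 3) and all rats at 10 days below all rats at 3 days. In sham the Fn1 signal was 10.48 ± 0.17, and all rats at 10 days were still above all sham rats. That difference from sham did not pass the test. The call between the days was made in 2 of 9 fits without 1 array, where the difference was -0.862 to -0.702 and adjusted p 0.0162 to 0.187. Groups of 3 rats are too small for the test of single outlying rats.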

How the results depend on the processing

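For 41 differences of single genes, 690 comparisons with an alternative were made, of which 598 kept direction and side of the threshold, 74 fell short, 5 newly passed and 13 changed sign. For 8 counts of genes called, 134 were made, of which 85 stayed within 1.5 times and 49 did not. The cause was not tested for any of them. The 3-day calls of Hs3st3a1, Hs3st3b1 and Sulf2 held in all 17 alternatives each. At 10 days, 2 of the 10 genes became 0 with no filter, 0 over all probesets, and 0 to 3 without 1 array. With the 2 groups alone, the 3-day calls of Xylt1 (adjusted p = 0.0520), Papss1 (0.0571), Papss2 (0.0794), Sdc1 (0.0591) and Hbegf (0.0545), the 10-day call of Papss1 (0.0608) and that of Fn1 between the days (0.0696) were lost. The 10-day calls of Hs3st3b1 and Sulf2 were lost in 9 of 17 alternatives, and Hs3st3a1, which missed the threshold at 10 days, passed it in 5 of 17 (adjusted p = 0.0392 with a 50th percentile filter).

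Of all genes, the 401 called at 3 days became 191 over all probesets, 134 with the 2 groups alone and 190 to 327 without 1 array. The 103 at 10 days became 0 with no filter, 173 with a 50th percentile filter, 0 over all probesets, 170 after quantile normalization, 173 with trend and robust moderation, 61 with the 2 groups alone and 0 to 140 without 1 array. The 10 between the days became 0 over all probesets, 3 with the 2 groups alone and 0 to 18 without 1 array. The 329 of the F test became 81 over all probesets and 54 to 290 without 1 array.

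With the replicate number as a block, 264 genes were called at 3 days, 0 at 10 days, 0 between the days and 118 by the F test, and 3, 0, 0 and 3 of the 10 genes. Deviations from the group mean correlated at -0.095 to 0.0837 over 9 pairs of same-numbered rats, and at -0.127 to 0.167 between differently numbered rats. With 3 rats a group these values cannot show whether the numbers are a pairing, and the sample titles name none.

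Sign changes were seen only in differences that passed no test. After quantile normalization these were Ext1 (0.0153) and Ndst1 (-0.0322) between the days and Hs6st1 at 3 days (-0.004). Without 1 array, the ranges that cross 0 at 3 days were those of Hs3st1 (-0.21 to 0.00587, positive without 3-day rat 3), Hs6st1 (-0.0425 to 0.052, negative without 3-day rat 1 and, at -0.0105, without sham rat 1), Ndst2 (-0.0107 to 0.11, negative without sham rat 1) and Sulf1 (-0.0194 to 0.0644, negative without 3-day rat 1). At 10 days it was that of Hs2st1 (-0.00865 to 0.0424, negative without 10-day rat 1). Between the days they were those of Ext1 (-0.0657 to 0.017, positive without 3-day rat 3), Hs3st1 (-0.116 to 0.0989, negative without 3-day rat 3 and, at -0.0363, without 10-day rat 2) and Ndst1 (-0.00819 to 0.0132, negative without 10-day rat 3). Low signal over background limits what can be said of Sulf1 and Ndst1.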
